A study of Rattus norvegicus with 6 samples.

Results

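The miR-10, miR-99/100 and miR-125 miRNAs were followed in small RNA sequencing of the peri-infarct cortex, the tissue that borders an ischemic lesion, in rats with and without repetitive transcranial magnetic stimulation (rTMS). The 10 members were taken by name from the table of mature miRNAs and were all among its 493 rows. They are rno-miR-10a-5p, rno-miR-10b-5p, rno-miR-99a-5p, rno-miR-99a-3p, rno-miR-99b-5p, rno-miR-100-5p, rno-miR-125a-5p, rno-miR-125a-3p, rno-miR-125b-5p and rno-miR-125b-1-3p, written below without the rat prefix. All 6 rats were Sprague-Dawley males whose right middle cerebral artery was closed for 90 min and then reopened (MCAO). The 3 rats of the MCAO group had no stimulation. The 3 rats of the MCAO-rTMS group received 10 Hz rTMS for 10 min on each of 7 days by the labels, with the coil over the motor cortex of the injured side. The methods of the study describe each day instead as short trains with longer rests, which add up to more than that time. The labels place the cortex of the MCAO rats at day 7 and give no day for the MCAO-rTMS rats, for which the supplement of the study names the same day. The ages were not given, and no library from a rat without MCAO was analysed here.

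The miR-99/100 and miR-125 genes lie next to let-7 genes in old, conserved clusters. A cluster is copied as 1 long primary transcript, from which the enzyme Drosha cuts each hairpin and Dicer then releases a duplex of a 5p and a 3p arm. Usually 1 arm is loaded into Argonaute and kept, and the other is degraded, so the arms of 1 hairpin can differ widely in level. The protein LIN28 blocks the maturation of let-7 hairpins but not that of their cluster neighbours, which is a known way for partners of 1 transcript to part. In the brain, miR-125 is the relative of worm lin-4 and acts on synaptic and differentiation genes, and miR-99/100 is known for targeting Mtor. miR-10 lies within the Hox gene clusters and is typical of the posterior body axis, including the spinal cord, rather than of the cortex.

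In the RefSeq gene table of the rat assembly GRCr8, the 3 clusters were found in the order Mir99a, Mirlet7c1 and Mir125b2 on chromosome 11, Mir100, Mirlet7a-2 and Mir125b1 on chromosome 8, and Mir99b, Mirlet7e and Mir125a on chromosome 1. Mir10a lay nearest to Hoxb4 on chromosome 10 and Mir10b nearest to Hoxd3 on chromosome 3. The mature let-7c-5p and let-7a-5p are each also made from a second gene elsewhere, and miR-125b-5p is made from both Mir125b1 and Mir125b2, so their counts could not be assigned to 1 cluster. Mature sequences were taken from RefSeq (GRCr8), where 9 of the 10 members and the 3 let-7 partners had an entry, all on the plus strand. The following are shown because the members are told apart by few bases and are grouped by the seed, bases 2 to 8, in capitals, which chooses the target mRNAs.
miR-10a-5p: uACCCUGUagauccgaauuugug
miR-10b-5p: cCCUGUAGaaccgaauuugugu
miR-100-5p: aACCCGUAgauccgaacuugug
miR-99b-5p: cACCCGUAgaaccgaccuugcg
miR-125a-5p: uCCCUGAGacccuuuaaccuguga
miR-125b-5p: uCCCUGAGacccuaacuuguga
miR-125a-3p: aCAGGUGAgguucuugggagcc
miR-125b-1-3p: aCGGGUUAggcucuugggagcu
let-7c-5p: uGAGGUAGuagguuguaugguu
let-7e-5p: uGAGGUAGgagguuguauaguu
let-7a-5p: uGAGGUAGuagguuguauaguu

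miR-100-5p and miR-99b-5p share their seed, as do miR-125a-5p and miR-125b-5p, whose first 13 bases are identical. The annotated miR-10b-5p starts 2 bases later than miR-10a-5p, so their seeds differ as listed. With that shift, 20 of 21 overlapping bases are the same and the difference is U12A, with the base of miR-10a-5p first and positions counted from 1 at its 5′ end. let-7a-5p differs from let-7c-5p by A19G and from let-7e-5p by U9G, counted in the same way. How the counting treated reads that match several of these miRNAs, or that start at another base, is not given in the sources used here.

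Each library was from 1 rat and held between 10492610 and 15411620 counted reads. Levels are counts per 1 M reads (CPM) of the library total scaled by its TMM factor, with factors between 1.16 and 1.39 in the MCAO group and between 0.695 and 0.864 in the MCAO-rTMS group. The smallest count above 0 in the table was 10 and no member had a count of 0. Of the 452 miRNAs tested with edgeR, 55.3% passed an adjusted p of 0.05, of which those higher with rTMS were 27.2% and those lower 28.1% of the tested miRNAs. Library totals without factors gave 58.2%, with 12.2% up and 46.0% down, and upper-quartile factors gave 56.9%, with 18.8% up and 38.1% down. The median log2 fold change of all tested miRNAs was -0.21, or -0.80 when library totals alone were used, so the scaling shifts every level, and the ratios within a library given below do not depend on it.

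Of the 10 members, 5 rose and 2 fell with rTMS, and 3 did not pass the test. The share called is near the 55.3% of all tested miRNAs and is no result about the members as a list. With library totals, 4 rose and 4 fell, miR-125a-5p changed sign without a call and the call of miR-100-5p was lost. The median log2 fold change of the members was 0.43, against -0.21 for all tested miRNAs, and their range was from -1.58 to 3.16. In 8 members the groups did not overlap, beside 66.8% of all tested miRNAs. The 3 let-7 partners of the clusters were all higher, with log2 fold changes from 1.88 to 2.71. Since the tissue was sequenced whole, a change in the number of cells of a type and a change of the RNA per cell cannot be told apart.

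**Figure D1:**
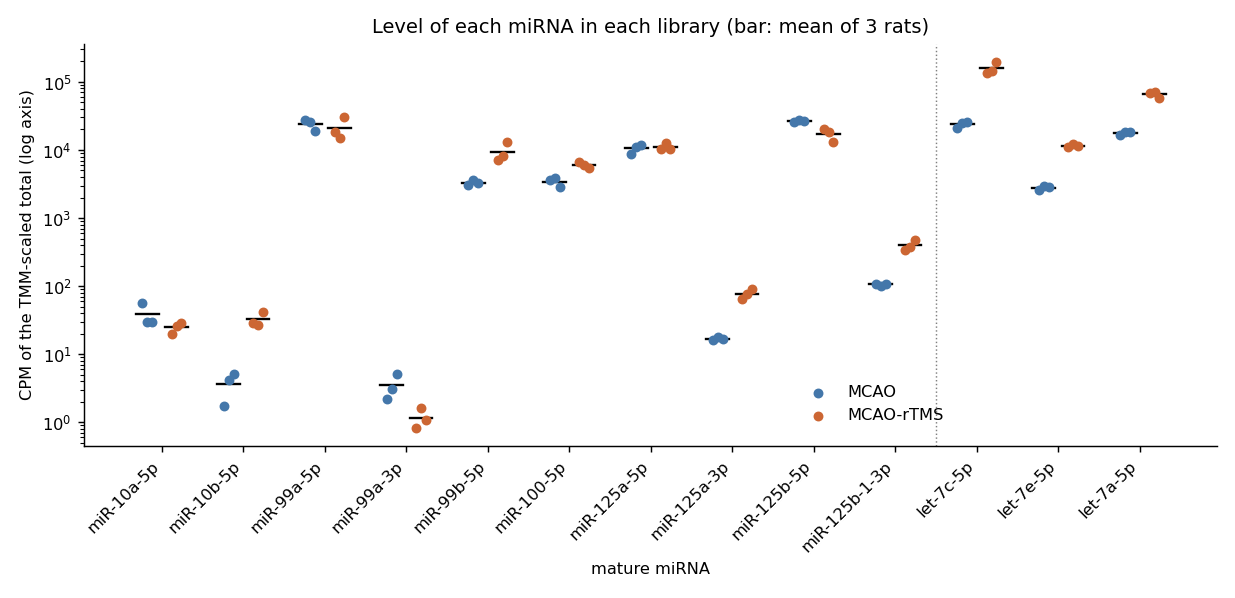
CPM of the TMM-scaled total on a log axis for the 10 members and, right of the dotted line, the 3 let-7 partners, with 1 point per library and a bar at the mean of 3 rats. miR-99a-5p and miR-125a-5p overlap between the groups, while miR-10b-5p, miR-125a-3p and miR-125b-1-3p in the MCAO-rTMS libraries lie above every MCAO library, as do the let-7 partners.

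The members with a sequence are 22 to 24 bases long, and the levels were not divided by length. Without rTMS, miR-125b-5p had the highest mean, 26700 ± 1140 CPM (SD, n = 3), and ranked 3 among all miRNAs of the table. miR-99a-5p followed with 24119 ± 4744 CPM (SD, n = 3) and overlapped with miR-125b-5p. miR-125a-5p was at 10565 CPM, and miR-100-5p and miR-99b-5p, which overlapped, were at 3436 and 3303 CPM. Below them came miR-125b-1-3p at 106 CPM, miR-10a-5p at 38.8 CPM and miR-125a-3p at 17.0 CPM. The lowest, miR-10b-5p at 3.64 CPM and miR-99a-3p at 3.49 CPM, overlapped with each other. With rTMS, miR-99b-5p (9457 ± 3312 CPM, SD, n = 3) stood above miR-100-5p in all 3 libraries, and miR-10b-5p stood above miR-10a-5p in each of them.

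Among the miR-99/100 miRNAs, the most abundant did not pass the test and the others of the 5p arm rose. miR-99b-5p, from the cluster with let-7e, was at 3040, 3568 and 3301 CPM in the MCAO libraries and at 7102, 8025 and 13244 CPM in the MCAO-rTMS libraries. All MCAO-rTMS libraries were above all MCAO libraries, and replicate 3 of the MCAO-rTMS group was the highest. The log2 fold change, with its standard error (SE), was 1.52 (SE 0.26, adjusted p = 0.0028 in edgeR). miR-100-5p, the neighbour of let-7a-2, was at 3584, 3908 and 2817 CPM without rTMS and at 6615, 5985 and 5354 CPM with it. The groups did not overlap, and the log2 fold change was 0.80 (SE 0.19, adjusted p = 0.011 in edgeR). With library totals the log2 fold change of miR-100-5p was 0.20 and did not pass (adjusted p = 0.42 in edgeR).

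miR-99a-5p, the neighbour of let-7c-1, was at 27674, 25950 and 18732 CPM in the MCAO libraries and at 18315, 15049 and 30145 CPM in the MCAO-rTMS libraries. The groups overlapped, with the highest and the lowest value both in MCAO-rTMS libraries, and the log2 fold change was -0.19 (SE 0.29, adjusted p = 0.61 in edgeR). With library totals its log2 fold change was -0.84 with an adjusted p of 0.010 in edgeR. Its other arm, miR-99a-3p, was rare, with counts of 35, 37 and 83 in the MCAO libraries and 11, 19 and 11 in the MCAO-rTMS libraries. It was lower with rTMS by edgeR (log2 fold change -1.58, SE 0.46, adjusted p = 0.024), close to the smallest count that the table lists. That call was lost when MCAO replicate 2 or 3 or MCAO-rTMS replicate 1 or 3 was left out, with an adjusted p between 0.052 and 0.093 in edgeR.

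Shares within the miR-99/100 5p arms are free of the scaling, and those of miR-99a-5p and miR-99b-5p did not overlap between the groups. miR-99a-5p held 80.7%, 77.6% and 75.4% of their counts in the MCAO libraries and 57.2%, 51.8% and 61.8% in the MCAO-rTMS libraries. miR-99b-5p held 8.86%, 10.7% and 13.3% without rTMS and 22.2%, 27.6% and 27.2% with it. For both, the exact permutation test gave p = 0.1, the smallest that 3 rats against 3 allow (0.117 after adjustment over 7 such shares, which were added after the data were seen). miR-100-5p held 20.7% and 20.6% in MCAO-rTMS replicates 1 and 2 but 11.0% in replicate 3, within the MCAO range of 10.4% to 11.7%, and its exact permutation p was 0.3. Without that library the mean share of miR-100-5p was 9.46 percentage points above that of the MCAO libraries, against 6.25 with it. Together the 3 miRNAs held 3.81% ± 0.33 of the reads without rTMS and 2.89% ± 0.45 with it (SD, n = 3 each). Unlike the shares within the arms, this is a share of the library total without factors and is not free of the scaling. Under library totals the median log2 fold change of all tested miRNAs was -0.80.

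**Figure D2:**
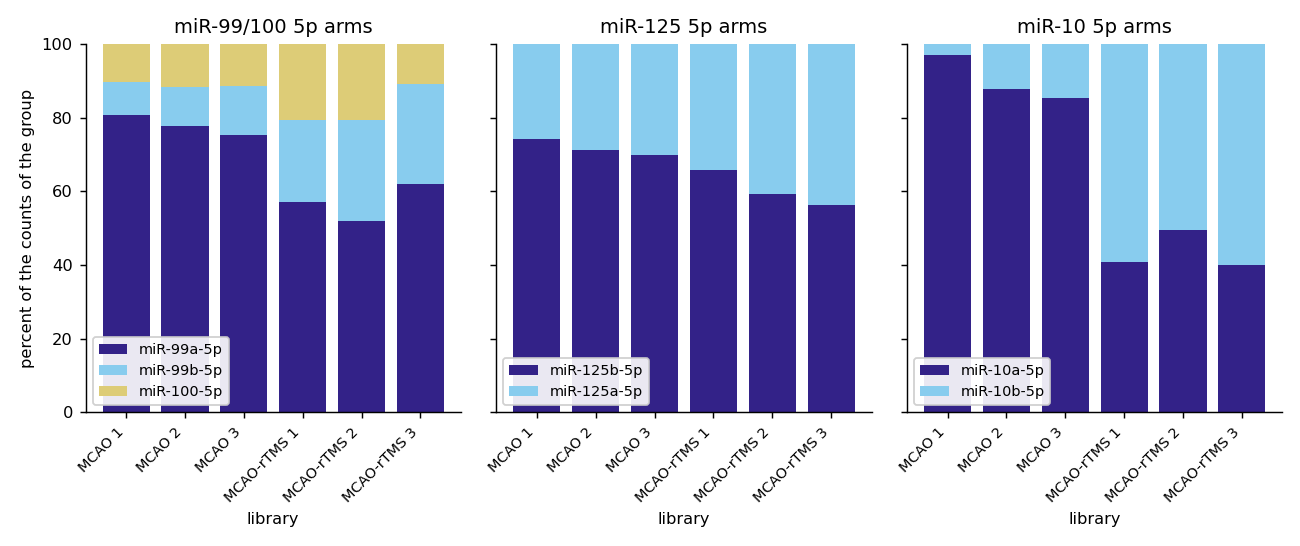
Stacked bars of the percent of counts that each miRNA held among the miR-99/100, the miR-125 and the miR-10 5p arms in each of the 6 libraries. In the MCAO-rTMS libraries miR-99a-5p takes less, at most 61.8%, and miR-10b-5p more, at least 50.6%, than in any MCAO library.

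In the miR-125 family neither of the abundant 5p arms passed the test as higher, whereas both 3p members did. miR-125b-5p was at 25465, 27713 and 26923 CPM in the MCAO libraries and at 20003, 18063 and 13306 CPM in the MCAO-rTMS libraries, all below. edgeR gave a log2 fold change of -0.64 (SE 0.19, adjusted p = 0.023). This call was lost when any MCAO replicate or MCAO-rTMS replicate 2 was left out, with an adjusted p between 0.058 and 0.086 in edgeR. miR-125a-5p was at 8806, 11194 and 11696 CPM without rTMS and at 10371, 12490 and 10300 CPM with it. The groups overlapped and the log2 fold change was 0.07 (SE 0.18, adjusted p = 0.79 in edgeR), with a change of sign, to -0.56, under library totals. Both share the seed CCCUGAG with 1 other row of the table, miR-351-5p, chosen by its sequence, which was higher with rTMS (log2 fold change 0.90, SE 0.21, adjusted p = 0.011 in edgeR). Under library totals its log2 fold change was 0.28 and the call was lost.

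miR-125a-3p, the minor arm of the hairpin next to let-7e, was at 16.2, 17.8 and 17.0 CPM in the MCAO libraries and at 63.6, 77.1 and 92.0 CPM in the MCAO-rTMS libraries. All MCAO-rTMS values were above all MCAO values, and edgeR gave a log2 fold change of 2.19 (SE 0.20, adjusted p = 0.00027), the rank of 18 from the top among 452. miR-125b-1-3p, the minor arm from the cluster with let-7a-2, was at 109, 100.1 and 109 CPM and at 344, 376 and 476 CPM. No library of one group reached the other, and edgeR gave a log2 fold change of 1.91 (SE 0.20, adjusted p = 0.00035). miR-125b-2-3p, the minor arm from the cluster with let-7c-1 and no member of the list, was at 276 ± 13.6 CPM without rTMS and at 504 ± 30.5 CPM with it (SD, n = 3 each). edgeR gave a log2 fold change of 0.87 (SE 0.16, adjusted p = 0.0042), or 0.24, without a call, with library totals.

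**Figure D3:**
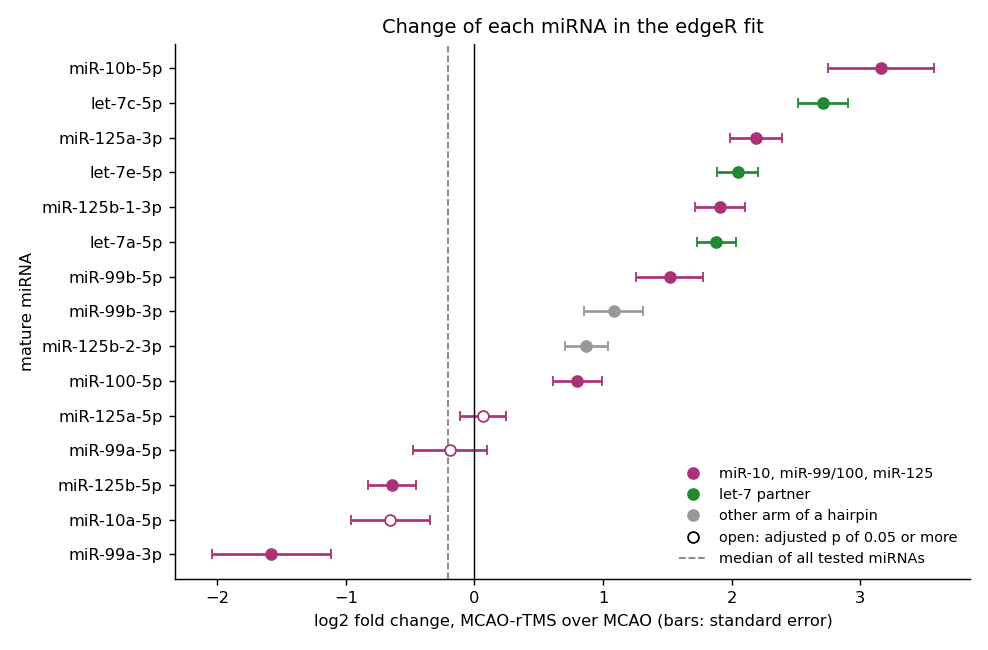
Log2 fold change of MCAO-rTMS over MCAO in the edgeR fit with its standard error for the members, the 3 let-7 partners and 2 other arms, with filled points for an adjusted p under 0.05. miR-125a-3p (2.19) and miR-125b-1-3p (1.91) stand among the let-7 partners (1.88 to 2.71), while the 5p arms of the same hairpins are at 0.07 and -0.64.

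The ratio of the arms of 1 hairpin in 1 library is free of scaling. In the MCAO libraries there were 545, 628 and 689 reads of miR-125a-5p for each read of miR-125a-3p, and in the MCAO-rTMS libraries 163, 162 and 112. For miR-125b-5p to miR-125b-1-3p the ratios were 234, 277 and 247 in the MCAO libraries and 58.1, 48.1 and 28.0 in the MCAO-rTMS libraries. On the log2 scale the mean ratio differed by -2.11 for miR-125a and by -2.56 for miR-125b, with no overlap between the groups. The 5p arm of miR-125b also comes from the second gene, so its ratio mixes 2 hairpins.

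The ratio of the miR-99b arms moved the other way. miR-99b-5p had 21.1, 23.0 and 20.2 reads for each read of miR-99b-3p in the MCAO libraries and 27.5, 27.6 and 30.9 in the MCAO-rTMS libraries, a log2 difference of 0.42. Both arms of miR-99b rose, and the log2 fold change of miR-99b-3p was 1.08 (SE 0.23, adjusted p = 0.0073 in edgeR), or 0.42 without a call under library totals. For miR-99a the ratio of the arms overlapped between the groups (log2 difference 1.32, exact permutation p = 0.2), and it was 0.81 without MCAO replicate 3. For miR-100 it rests on 0 to 17 reads of the 3p arm in a library, and the log2 difference of 2.21 was 1.18 after adding 10 to each count and 1.21 without MCAO-rTMS replicate 3, where the 3p arm was at 0. For miR-99b, miR-100, miR-125a and miR-125b the exact permutation p was 0.1, the smallest possible, and 0.125 after adjustment over the 5 hairpins. The 3p arms of miR-10a and miR-10b had no row among the mature miRNAs counted.

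**Figure D4:**
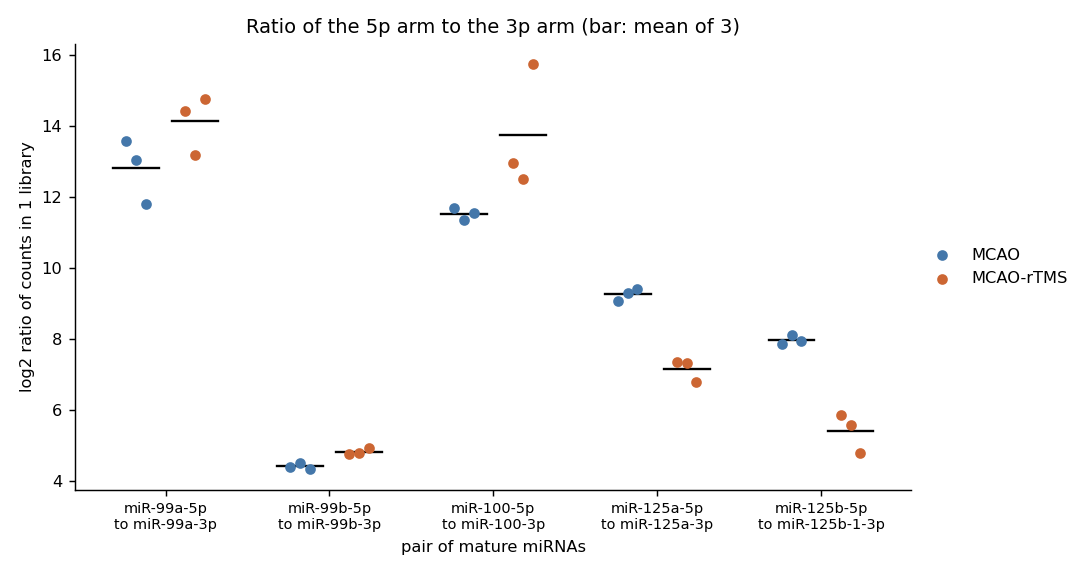
Log2 ratio of 5p to 3p counts in each library for 5 hairpins, with a bar at the mean of 3 rats (1 was added to both counts for miR-100, where 1 library listed 0). The ratio is lower in all MCAO-rTMS libraries for miR-125a and miR-125b and higher in all of them for miR-99b and miR-100.

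The members were then set against the let-7 miRNA of their own cluster in the same library. let-7c-5p was at 21188, 24983 and 25889 CPM in the MCAO libraries and at 134715, 143046 and 194297 CPM in the MCAO-rTMS libraries. let-7e-5p rose from 2801 ± 212 CPM to 11555 ± 591 CPM (SD, n = 3 each), with a log2 fold change of 2.04 (SE 0.16). let-7a-5p rose from 17777 ± 898 CPM to 65383 ± 6265 CPM (SD, n = 3 each), with a log2 fold change of 1.88 (SE 0.15). The log2 fold change of each 5p member was below that of its partner. Among the 452 tested miRNAs the partners ranked 8 (let-7c-5p), 22 (let-7e-5p) and 32 (let-7a-5p) from the top. Most tested miRNAs were thus below them, and a lower ratio to let-7 is not particular to the cluster neighbours.

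In the cluster of let-7c-1, the count of miR-99a-5p was 1.31, 1.04 and 0.724 times that of let-7c-5p in the MCAO libraries and 0.136, 0.105 and 0.155 times in the MCAO-rTMS libraries. miR-125b-5p stood at 1.20, 1.11 and 1.04 times let-7c-5p without rTMS and at 0.148, 0.126 and 0.0685 times with it. The counts were near parity in the MCAO libraries and let-7c-5p led in every MCAO-rTMS library, with log2 differences of -2.93 and -3.36. In the cluster of let-7a-2, miR-100-5p stood at a geometric mean of 0.192 times let-7a-5p without rTMS and 0.0915 times with it, a log2 difference of -1.07. miR-125b-5p stood at 1.52, 1.53 and 1.46 times let-7a-5p in the MCAO libraries and at 0.295, 0.258 and 0.228 times in the MCAO-rTMS libraries, a log2 difference of -2.54, with no overlap in either case.

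In the cluster of let-7e, both neighbours of the hairpin are members. The count of miR-125a-5p was 3.43, 3.76 and 4.09 times that of let-7e-5p in the MCAO libraries and 0.935, 1.02 and 0.907 times in the MCAO-rTMS libraries, a log2 difference of -1.98. miR-99b-5p was at 1.18, 1.20 and 1.15 times let-7e-5p without rTMS and at 0.640, 0.657 and 1.17 times with it. Replicate 3 of the MCAO-rTMS group lay within the MCAO range, so the groups overlapped, with a log2 difference of -0.58 and SDs of 0.027 without rTMS and 0.49 with it (exact permutation p = 0.2). Without that library it was -0.86. For the other 5 of the 6 pairs the exact permutation test gave p = 0.1, and 0.12 after adjustment over the 6. Over all let-7 5p arms, the share of a library was 13.0% ± 0.92 without rTMS and 30.4% ± 2.07 with it (SD, n = 3 each). That of the miR-125 5p arms was 4.66% ± 0.65 and 2.30% ± 0.57 (SD, n = 3 each). Both are shares of the library total without factors and are not free of the scaling.

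**Figure D5:**
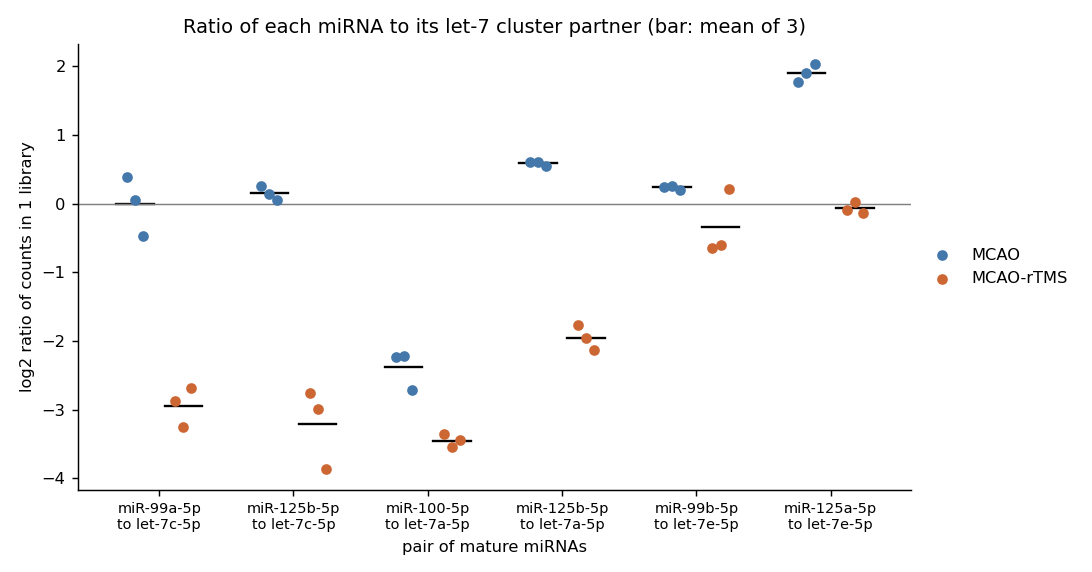
Log2 ratio of the count of each member to that of its let-7 cluster partner in each library, with a bar at the mean of 3 rats and a line at equal counts. All MCAO-rTMS points lie below all MCAO points in 5 of the 6 pairs, and for miR-99b-5p to let-7e-5p 1 MCAO-rTMS library lies among the MCAO libraries. Most tested miRNAs had a log2 fold change below those of the let-7 partners.

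Of the other arms listed beside the members and the let-7 partners, 8 of 10 were tested. Of these, 3 were higher (miR-99b-3p, miR-125b-2-3p and let-7c-1-3p) and 2 lower. The lower ones were let-7c-2-3p and let-7a-1-3p. By name they come from Mirlet7c2 and Mirlet7a1, the second let-7 genes, which lie outside the 3 clusters. Their counts were identical in every library, so that they may be the same reads. The let-7 3p arms of the clusters were higher (let-7c-1-3p) or did not pass (let-7e-3p and let-7a-2-3p). Of the 6 other let-7 5p arms, 4 were higher and 2 did not pass, with log2 fold changes from 0.19 to 2.81. Of all tested miRNAs, 27.2% were higher and 28.1% lower. With library totals the calls of let-7d-5p (log2 fold change -0.07, adjusted p = 0.74 in edgeR) and let-7c-1-3p (0.13, adjusted p = 0.73 in edgeR) were lost.

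The miR-10 miRNAs, which have no let-7 neighbour, were scarce, and miR-10b-5p rose while miR-10a-5p did not pass the test. miR-10b-5p had 27, 50 and 81 reads in the MCAO libraries and 385, 314 and 435 reads in the MCAO-rTMS libraries, or 1.72, 4.13 and 5.07 CPM against 29.0, 26.5 and 42.3 CPM. The groups were far from overlapping, and edgeR gave a log2 fold change of 3.16 (SE 0.41, adjusted p = 0.00096), which ranked 2 from the top of the 452. miR-10a-5p was at 57.1, 29.5 and 29.8 CPM without rTMS and at 19.9, 25.8 and 28.3 CPM with it. The groups did not overlap, though narrowly, and MCAO replicate 1 was far above the others. The log2 fold change of -0.65 (SE 0.31) did not pass (adjusted p = 0.10 in edgeR). Without that library it was -0.26. miR-10a-5p was called lower with library totals (-1.28, adjusted p = 0.0080 in edgeR), with upper-quartile factors (-0.95, adjusted p = 0.034) and when miRNAs with a mean count above 200 alone were tested (-0.78, adjusted p = 0.040). miR-10b-5p made up 2.92%, 12.3% and 14.6% of the miR-10 5p counts in the MCAO libraries and 59.2%, 50.6% and 59.9% in the MCAO-rTMS libraries (exact permutation p = 0.1, and 0.117 over the 7 shares). Their sum held 0.00526% ± 0.0016 of a library without rTMS and 0.00455% ± 0.00035 with it (SD, n = 3 each), with overlap. This too is a share of the library total without factors. The 4 other Hox-linked miRNAs listed beside the miR-10 miRNAs had no row among the 493.

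Markers of other cell types also differed between the groups, and their part in the changes of the members was not tested. Of all tested miRNAs, 27.2% were higher and 28.1% lower. Of 5 microglia and leukocyte miRNAs 4 were lower, with a summed level of 695 to 718 CPM without rTMS and 312 to 549 CPM with it. Most of that sum was miR-146a-5p, at means of 618 and 414 CPM, the 1 not called (adjusted p = 0.078 in edgeR). Of 3 tested oligodendrocyte miRNAs 2 were higher, with sums of 788 to 1062 and 1275 to 2576 CPM. Most of the sum was miR-219a-2-3p, at means of 692 and 1617 CPM, while miR-338-3p had a log2 fold change of -0.73 without a call. With library totals both calls were lost (adjusted p = 0.15 for miR-219a-2-3p and 0.65 for miR-338-5p in edgeR). Of 4 skeletal muscle miRNAs 2 were higher and 2 lower, with sums of 82.1 to 143 and 240 to 394 CPM. With rTMS most of the sum was miR-206-3p, at a mean of 254 CPM. Of 4 vascular miRNAs 1 was higher and 1 lower, with overlapping sums. Of the 2 red blood cell miRNAs tested, miR-486 was higher (log2 fold change 1.72) and miR-451-5p lower (-1.61). Their sums were 141 to 302 and 513 to 637 CPM. Of 3 choroid plexus miRNAs 1 was lower, miR-449a-5p, which was at 0 in all MCAO-rTMS libraries, and the sums were 419 to 552 and 593 to 1135 CPM. Of the 5 neuronal miRNAs 1 was higher and 1 lower, with sums of 325576 to 423316 CPM without rTMS and 424731 to 613031 CPM with it. The sums did not overlap. The higher one was miR-128-3p, at means of 212040 and 341038 CPM, a call lost with library totals (adjusted p = 0.83 in edgeR). The others all had negative log2 fold changes, from -1.65 for miR-138-5p to -0.16 for miR-9a-5p.

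Distance between miRNAs was taken as the root mean square difference of log2(CPM + 1), centred on each miRNA's mean over the 6 libraries. By it, the nearest miRNAs to each member were found among the tested miRNAs that are not members. For miR-125a-3p these were miR-485-5p (0.066) and miR-323-5p (0.099), and for miR-125b-1-3p the same ones (0.14 each). For miR-10b-5p they were miR-672-5p (0.26) and let-7c-5p (0.29), for miR-99b-5p miR-212-5p (0.11), and for miR-99a-5p miR-330-5p (0.083). With groups this far apart the measure follows the difference between the groups in the first place. Across the 414 tested miRNAs with a sequence, the log2 fold change had a Pearson r of 0.24 and a Spearman rho of 0.29 with GC content, as a description of miRNAs that share the same 6 libraries. The GC content was 63.6% for miR-99b-5p and 59.1% for miR-125a-3p and miR-125b-1-3p. It was 50% for miR-99a-3p, miR-100-5p, miR-125a-5p and miR-125b-5p and 43.5% for miR-10a-5p. miR-125b-2-3p, no member but also higher with rTMS, had 54.5%. The GC content was also low, at 45.5%, for miR-10b-5p, the member with the highest log2 fold change. It was 40.9% for let-7c-5p and let-7e-5p and 36.4% for let-7a-5p, which all rose. The part of GC content in the changes was not tested.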

How the data were processed

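Small RNA libraries of 3 MCAO and 3 MCAO-rTMS rats were made with a ligation kit and sequenced on an Illumina machine, 1 library per rat. The authors deposited raw read counts per mature miRNA, not normalized. Per the labels, bcl2fastq, BWA, DESeq2 and the build rn6 were used, and the miRNA database and counting rule are not given in the sources used here. A second deposited table holds a selection of the same counts and was not used. Ligation favours some sequences, so levels of different miRNAs compare less well than 1 miRNA between groups.

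edgeR 4.0.16, run in R 4.3.3, supplied the filter on low counts (filterByExpr), the TMM factors and the quasi-likelihood test, and Benjamini-Hochberg adjustment covered the 452 tested miRNAs. The standard error is the log2 fold change divided by the root of F. The calculations were tested on simulated data. Ratios and shares were compared by two-sided exact permutation tests over the libraries in Python 3.11.15 with scipy 1.17.1. Alternatives were other factors, DESeq2 1.42.0, limma-voom (limma 3.58.1), the equal-variance test that the methods of the study name, other filters, a replicate block and each library left out. Named were the members, their let-7 partners, other arms and let-7 members, Hox-linked and marker miRNAs and the nearest 2 non-members of each member. Members and lists were chosen with earlier results of these data known, and the shares within seed groups were added after the data were seen. SDs reflect the spread between rats, while the standard errors of edgeR also draw on the variance of all tested miRNAs. Reads were counted without molecular identifiers.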

Additional observations from a re-analysis of the deposited data

How the results depend on the processing

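The number of members that rose was 5 in 16 of the 17 alternatives and 4 with library totals. The number that fell, 2, was 4 with library totals, 3 with upper-quartile factors, 1 each with TMM factors computed without let-7 and the members, with limma-voom and with an equal-variance test, and 0 to 1 with any 1 library left out. It was also 2 for miRNAs with a mean count above 200, where miR-10a-5p was called and miR-99a-3p was not tested. miR-10b-5p, miR-99b-5p, miR-125a-3p, miR-125b-1-3p and the 3 let-7 partners kept their direction and the call in all 17. miR-99a-5p changed sign without MCAO-rTMS replicate 2 (log2 fold change 0.037, range with 1 library left out -0.50 to 0.037). miR-125a-5p changed sign with upper-quartile factors (-0.23), library totals (-0.56), only miRNAs with a mean count above 200 (-0.068) and without MCAO replicate 1 (-0.050, range with 1 library left out -0.050 to 0.18). The share of the miR-10 5p arms changed sign without MCAO replicate 1 (a difference of 0.00018 percentage points, range with 1 library left out -0.0014 to 0.00018). With any 1 library left out, no ratio or other share changed direction. The same held for the ratios of arms with a constant added to the counts. The replicate block leaves these differences as they are, so it could not change a direction. Other factors were not applied to the shares of the library total, but the TMM-scaled means can be set beside them. miR-99a-5p went from 24119 to 21170 CPM, miR-99b-5p from 3303 to 9457 and miR-100-5p from 3436 to 5985 CPM. Together these means were higher with rTMS, opposite to their share, though the libraries overlapped. The same held for miR-10a-5p (38.8 and 24.7 CPM) with miR-10b-5p (3.64 and 32.6 CPM). The direction of these shares thus depended on the scaling. For the miR-125 5p arms the means were together lower with rTMS, as was their share. The cause of the sign changes was not tested, except that other factors shift all miRNAs.

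Same-numbered rats are different animals, so the numbers do not pair the samples. The deviations of same-numbered libraries correlated at 0.198, -0.119 and -0.114, and those of differently numbered ones at -0.279 to 0.297. So few correlations cannot show whether same-numbered libraries were handled together. With the replicate block 180 miRNAs were called against 250, and 1 member was lower in place of 2, since miR-99a-3p passed no longer. Among the members, miR-99a-3p (SE 0.46) and miR-10b-5p (SE 0.41) had the largest standard errors, with under 100 reads in some libraries.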
